A study of Homo sapiens with 4 samples.

Results

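The genes described here encode the ligands that steer growing axons and the receptors that read them: semaphorins with plexins and neuropilins, ephrins with Eph receptors, Slits with Robo receptors, and netrins and repulsive guidance molecules with DCC, neogenin and the UNC5 receptors. They were found by symbol, as named members of these families, and the rule uses no measured value, although the families were picked with earlier results of these data known. The rule found 75 genes among the 60656 gene IDs of the files, 40 of them ligands and 35 receptors. Their transcription was measured by TTchem-seq, which sequences only the RNA that took up 4-thiouridine, a uridine analogue, while it was being made. The cells were HCT116, a human colorectal carcinoma line, arrested in G1 by 28 h in 2 µM palbociclib, which blocks CDK4 and CDK6, and labelled for 30 min in 1 mM 4-thiouridine. The DKO group is labelled as a double knockout of TOP2A and TOP2B, the genes of the type II topoisomerases. Per the protocol its cells are TOP2A mAID/TOP2B -/-: they lack TOP2B and carry TOP2A with the mAID tag, through which 500 µM auxin, given for 8 h, triggers destruction of the protein. The WT group is labelled wildtype, and no auxin is recorded for it. The other line the protocol names is TOP2A mAID, and it does not say whether that line is this group, nor from how many clones either line comes. Loss of the type II topoisomerases, auxin and any difference between cell clones therefore cannot be told apart. Each group has 2 libraries, which the labels do not describe as separate cultures, so p-values measure only the spread between these libraries. The question set by this design is what happens to transcription in G1 when type II topoisomerases are missing.

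Guidance ligands are secreted or held on the cell surface, and a receptor on a neighbouring cell answers them by remodelling its actin skeleton, which turns, attracts or repels the moving cell edge. Epithelia use the same families outside the nervous system. In the intestine, ephrin-B ligands and EphB receptors sort cells along the crypt axis, semaphorins and neuropilins act in vessels and tumours, and netrin receptors of the DCC and UNC5 families are known as dependence receptors, which can favour cell death when the ligand is missing.

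The libraries held 51142867 to 53777749 counted reads. TOP2A RNA, whose protein rather than transcript is removed by auxin, had 8770 and 8955 reads in DKO against 6519 and 6246, and TOP2B had 7852 and 8000 against 7264 and 7303, so the gene total of TOP2B does not show the knockout, and the deleted part is not given in the sources used here. Summed over 16 epithelial marker genes, the level was 567 and 576 CPM (read counts scaled to a common library total) in DKO and 597 and 630 in WT. Of the 11 tested ones 6 were called lower and 1 higher, against 21.1% and 19% of all tested genes. The summed level of 15 neuronal markers was 528 and 601 CPM in DKO against 139 and 144 in WT, of which SYT1 alone made up 513 and 586 against 131 and 135. That of 16 mesenchymal markers was 121 and 130 against 76.1 and 77.5. Of this sum ZEB1 alone made up 91.48 and 99.96 CPM in DKO against 50.08 and 50.98 in WT. Among the neuronal markers SYT1, SNAP25 and NCAM1 were called higher and none lower, the other 4 tested ones (SYP, TUBB3, MAP2 and RBFOX3) were not called, and NEFL and NEFM had 0 reads in every library. Of the 8 tested mesenchymal markers, TWIST1, COL5A1, SNAI2, ZEB1 and ACTA2 were called higher and SNAI1 lower. COL1A2 and PDGFRA had 0 reads. Endothelial markers (8.52 to 10.7 CPM over 11 genes, EGFL7 lower) and immune markers (1.45 to 2.18 CPM over 8 genes, HLA-DRA higher and CSF1R lower) stayed low. COL5A1, SNAI2, NCAM1 and HLA-DRA had enough reads for the test in DKO only, and CSF1R in WT only. The part of these shifts in the results below was not tested. In bulk libraries such as these, fewer cells of a type and less RNA per cell cannot be told apart.

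Guidance genes went both ways, with a few large rises and many moderate falls. Of the 75 genes, 64 had enough reads to be tested, 33 ligands and 31 receptors. At a Benjamini-Hochberg adjusted p under 0.05 from the quasi-likelihood test of edgeR, 14 were higher in DKO, against 19% of all 19103 tested genes, and 21 were lower, against 21.1%. In either direction 35 of 64 were called (54.7%), where 40.1% of all tested genes and 45.5% of protein-coding ones were. The median log2 fold change of the members was -0.09, and that of all tested genes -0.01. Of the called members 19 changed by at least 0.5 on the log2 scale, a size that 13.8% of all tested genes passed, and 8 by at least 2-fold, against 4.55%. For 53 of 64 members both CPM values of a group lay beyond both of the other, against 67.9% of all tested genes. EPHA8 and SEMA5B reached the minimum count in DKO only, and without them 12 of 62 were higher and 21 lower. Both are also among the 19 and the 8. Without them, 4 of the 62 were higher and 2 lower by at least 2-fold. The other 11 members had at most 10 reads in any library and are described by their counts. With a library left out, the number of calls fell most for the WT libraries, among members as among all tested genes. The group is then left with 1 sample, and the spread is taken from the other group. With each alternative setting and each library left out in turn, 14 of the 35 calls were made every time, namely EFNA5, NRP2, SEMA3E, SEMA3D and NEO1 among the rises and SLIT2, EPHB3, SEMA3C, UNC5A, SEMA6B, EPHB2, SEMA7A, NTN1 and EPHA4 among the falls. No called member changed sign under any of them. With a library left out this could hardly happen, since in every called member both CPM values of a group lay beyond both of the other.

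**Figure D1:**
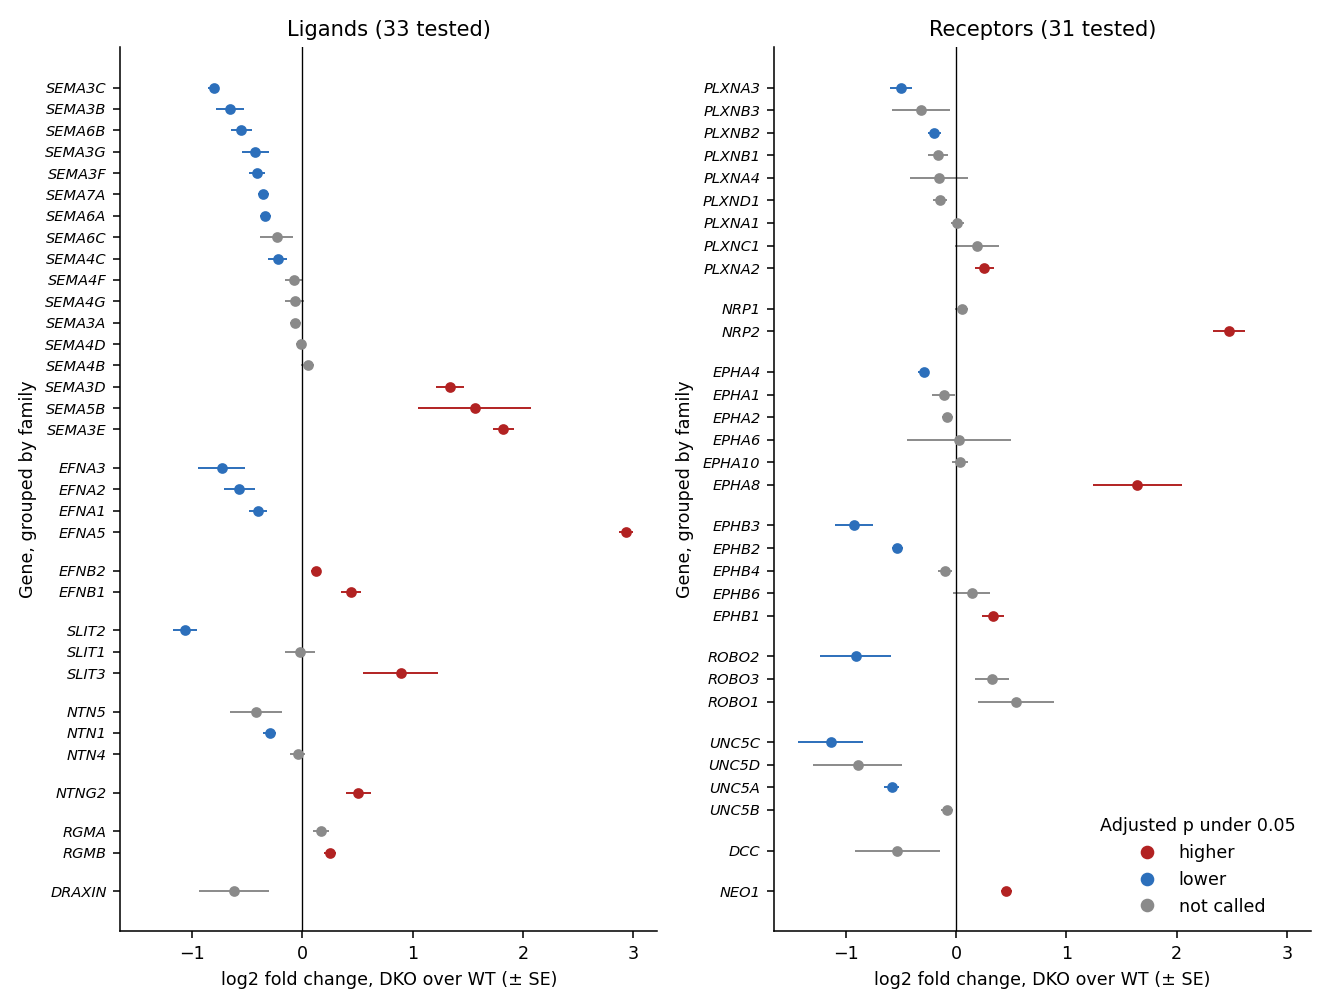
Log2 fold change of DKO over WT for each tested ligand (left, 33 genes) and receptor (right, 31 genes), grouped by family, with bars of ± 1 SE from the edgeR fit and colours for higher, lower and not called. EFNA5 (2.93), NRP2 (2.47), SEMA3E (1.82) and SEMA3D (1.34) stand far to the right with short bars, while the falls reach -1.14 at UNC5C.

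The largest change was that of EFNA5, the gene of ephrin-A5, a ligand tied to the outer cell membrane by a lipid anchor. It had 4829 and 5350 reads in DKO and 702 and 584 in WT, or 95.5 ± 6.8 against 12.5 ± 1.5 CPM (SD, n = 2). Both DKO libraries lay far above both WT libraries. The rise was 7.65-fold (log2 fold change 2.93 ± 0.06 SE, adjusted p = 3.46e-107), and it stayed between 2.82 and 3.06 under the alternatives. NRP2, the gene of neuropilin-2, a co-receptor of class 3 semaphorins, followed with 339 and 340 reads in DKO and 66 and 52 in WT. It rose 5.55-fold (2.47 ± 0.14, adjusted p = 6.37e-39) with no overlap. Every SD of CPM is over the 2 libraries of a group. CPM values of different genes are not compared, since the length counted per gene is not given in the sources used here.

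The 250 bases before the RefSeq start are shown for the 4 well-counted members that rose over 2-fold and for SEMA3C and SLIT2, which fell, because they are the members on which the results turn. Coordinates are those of GRCh38.p14 (for SEMA3D the table's start lies inside the gene's RefSeq span), each sequence runs 5′ to 3′ on the gene's own strand, and capitals mark the GC box letters GGGCGG or, for the other strand, CCGCCC.
EFNA5 (chr5:107670938-107671187, - strand): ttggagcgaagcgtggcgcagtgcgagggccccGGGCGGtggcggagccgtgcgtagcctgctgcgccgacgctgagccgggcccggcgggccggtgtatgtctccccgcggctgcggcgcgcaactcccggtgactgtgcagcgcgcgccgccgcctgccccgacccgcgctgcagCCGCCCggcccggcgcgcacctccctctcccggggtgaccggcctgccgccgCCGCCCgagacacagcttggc
NRP2 (chr2:205682251-205682500, + strand): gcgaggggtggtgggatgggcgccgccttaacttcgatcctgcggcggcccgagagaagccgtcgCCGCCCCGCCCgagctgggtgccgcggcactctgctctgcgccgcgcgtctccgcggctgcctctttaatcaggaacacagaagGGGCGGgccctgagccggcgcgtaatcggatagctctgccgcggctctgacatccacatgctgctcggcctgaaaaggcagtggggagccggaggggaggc
SEMA3E (chr7:83649140-83649389, - strand): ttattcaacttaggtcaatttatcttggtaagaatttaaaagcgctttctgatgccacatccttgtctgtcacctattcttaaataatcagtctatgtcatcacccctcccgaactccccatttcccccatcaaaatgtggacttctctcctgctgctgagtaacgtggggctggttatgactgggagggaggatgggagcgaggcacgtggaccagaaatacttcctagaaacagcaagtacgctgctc
SEMA3D (chr7:85187057-85187306, - strand): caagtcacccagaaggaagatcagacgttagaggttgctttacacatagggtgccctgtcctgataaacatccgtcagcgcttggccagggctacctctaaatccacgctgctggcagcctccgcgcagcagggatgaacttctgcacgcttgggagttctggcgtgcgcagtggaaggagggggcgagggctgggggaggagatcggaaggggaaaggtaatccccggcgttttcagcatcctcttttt
SEMA3C (chr7:80922390-80922639, - strand): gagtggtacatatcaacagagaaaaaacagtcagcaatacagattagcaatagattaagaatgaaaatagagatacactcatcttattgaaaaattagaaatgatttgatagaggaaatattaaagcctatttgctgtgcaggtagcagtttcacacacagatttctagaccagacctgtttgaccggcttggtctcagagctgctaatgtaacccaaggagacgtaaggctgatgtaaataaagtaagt
SLIT2 (chr4:20251655-20251904, + strand): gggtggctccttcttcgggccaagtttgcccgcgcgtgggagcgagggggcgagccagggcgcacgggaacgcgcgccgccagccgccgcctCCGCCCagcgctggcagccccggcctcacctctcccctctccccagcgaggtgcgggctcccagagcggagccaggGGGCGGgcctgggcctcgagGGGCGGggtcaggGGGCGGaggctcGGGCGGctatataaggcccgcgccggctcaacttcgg
The upstream windows of both directions were unlike among themselves. EFNA5 and NRP2, which rose, had 79.6% and 70% G or C, 41 and 29 CG pairs and 3 GC boxes each, counting overlapping matches. SEMA3E and SEMA3D, which also rose, had 46.4% and 57.6%, 6 and 13 CG pairs and no GC box. Of the genes that fell, SLIT2 had 77.2%, 30 CG pairs and 5 GC boxes, and SEMA3C had 36.4%, 2 CG pairs and none. A GC box was in 42.3% of all 27305 RefSeq windows of this length. Among members in the table, 8 of 13 called higher, 14 of 18 called lower and 19 of 24 not called had at least 1. The median G or C content was 63.6%, 70% and 66.2% in these groups, against 58% over all windows. The letters TATAAA, on either strand, were found in 11.1% of all windows and in 1 of the 13 higher members, none of the 18 lower and none of the 24 not called.

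**Figure D2:**
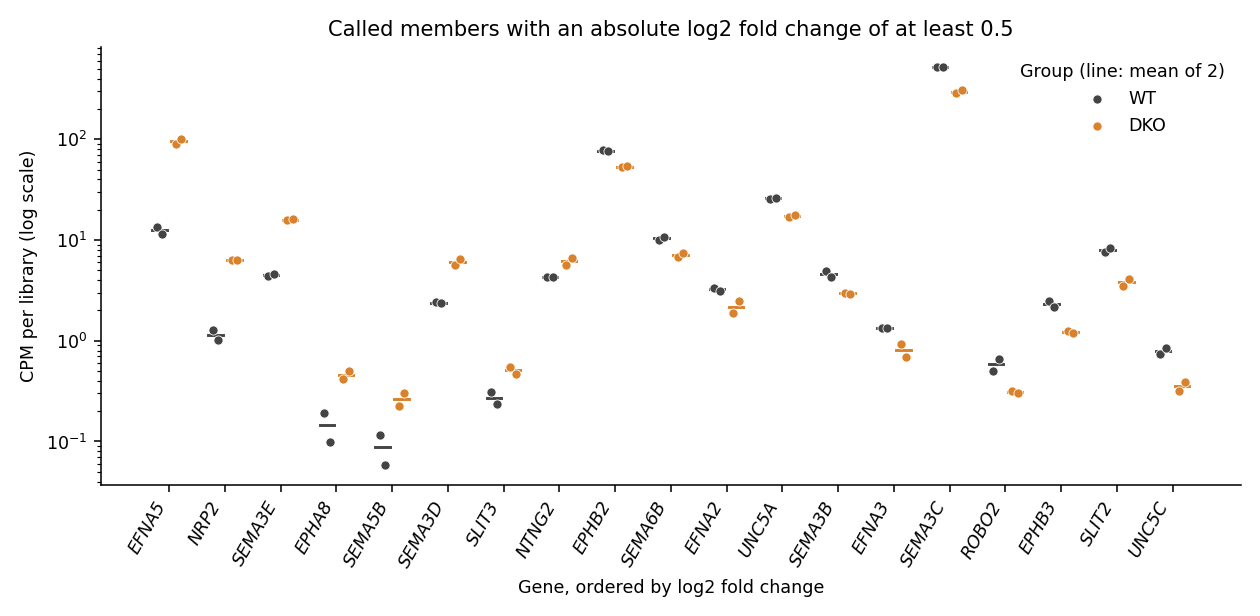
CPM of the 19 called members with an absolute log2 fold change of at least 0.5, on a log axis, with 1 point per library and a line at the mean of the 2 libraries of a group. In each of these genes both DKO points lie on the same side of both WT points, with EFNA5 at 95.5 against 12.5 CPM on average.

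Semaphorins are secreted (class 3) or membrane-bound (classes 4 to 7) ligands that mostly repel. Of 17 tested semaphorin genes 3 rose and 8 fell (64.7% called, against 40.1% of all tested genes). Their median log2 fold change was -0.23. All 7 class 3 genes were tested, and they split into 2 higher, 4 lower and 1 not called. SEMA3E, whose product signals through plexin-D1 without needing a neuropilin, had 836 and 861 reads in DKO and 229 and 234 in WT. That was a 3.54-fold rise (1.82 ± 0.09, adjusted p = 3.77e-45). SEMA3D had 303 and 342 reads in DKO and 125 and 121 in WT, a 2.53-fold rise (1.34 ± 0.12, adjusted p = 6.75e-20). Neither gene's groups overlapped.

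SEMA3C, a class 3 semaphorin that binds neuropilins, moved the other way with much deeper counts. It had 15344 and 16346 reads in DKO and 26829 and 26559 in WT, or 297 ± 13 against 519 ± 1.8 CPM, a fall of 1.74-fold (-0.80 ± 0.05, adjusted p = 7.49e-36). SEMA3A, the classic collapsing factor of growth cones and the semaphorin with the most reads, had 43142 and 46011 in DKO and 44853 and 45023 in WT and did not pass the test (-0.06 ± 0.05, adjusted p = 0.37). These 4 genes are neighbours on the long arm of chromosome 7, between position 80742538 and 85250243. Reading from SEMA3C, the other tested protein-coding genes of the stretch are CACNA2D1 (0.55, not called) and the synaptic scaffold gene PCLO (0.77 ± 0.06, adjusted p = 2.16e-28). SEMA3E, SEMA3A and SEMA3D follow. On the far side of SEMA3C, CD36 (-0.18, not called) and the G protein gene GNAI1 (0.60 ± 0.05, adjusted p = 1.46e-23) lie within 1 Mb. From SEMA3C on, the stretch thus held 1 called fall at its lower end and 3 called rises, PCLO, SEMA3E and SEMA3D, with SEMA3A between the last 2 not called. The median over all 787 tested genes of the chromosome was -0.01.

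**Figure D3:**
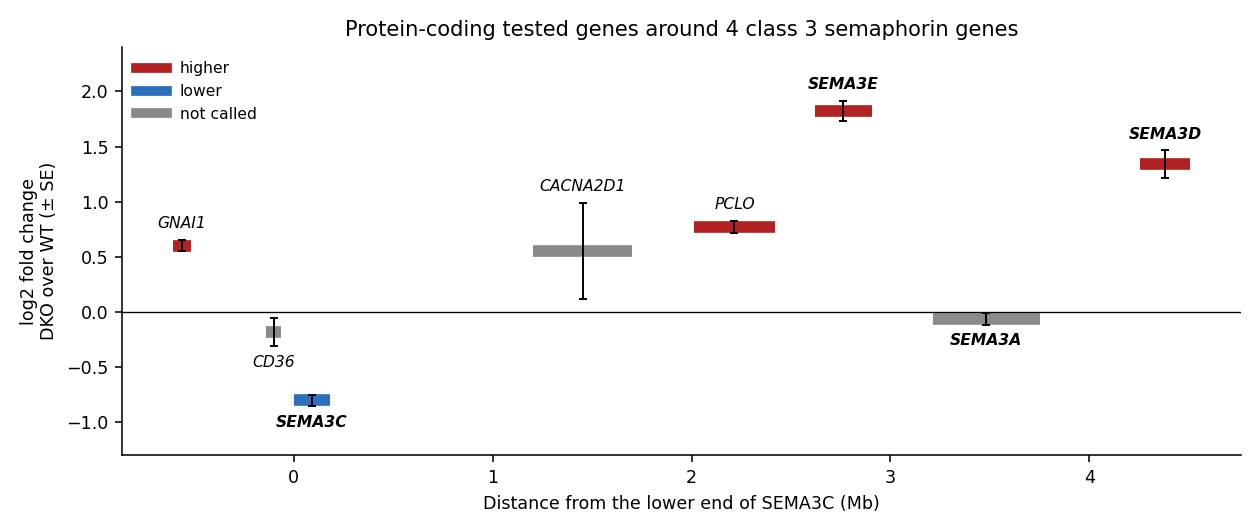
Log2 fold change (± SE) of the 8 tested protein-coding genes in and within 1 Mb of the stretch from SEMA3C to SEMA3D on chromosome 7, against distance from the lower end of SEMA3C, with each coloured bar as long as the gene. SEMA3E (1.82) and SEMA3D (1.34) lie high on either side of SEMA3A (-0.06), and SEMA3C (-0.80) lies below 0.

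The class 3 genes SEMA3B, SEMA3F and SEMA3G, all on the short arm of chromosome 3, fell moderately. SEMA3B, known as a tumour suppressor candidate, had 157 and 157 reads in DKO and 258 and 219 in WT (-0.65 ± 0.13, adjusted p = 4.19e-06). SEMA3F, a ligand of neuropilin-2, fell by 0.41 on the log2 scale (adjusted p = 3.14e-07) and SEMA3G by 0.43 (adjusted p = 0.00223). SEMA3B and SEMA3F lie in a gene-dense region: of 37 tested protein-coding genes within 1 Mb of SEMA3B, 23 were lower and none higher, with a median of -0.25. Over all tested protein-coding genes 25.2% were lower and 20.3% higher, with a median of -0.03. Without WT replicate 1, SEMA3B (-0.54, adjusted p = 0.0617), SEMA3F (-0.32, adjusted p = 0.1) and SEMA3G (-0.40, adjusted p = 0.21) were not called. SEMA3G also missed the threshold without DKO replicate 1 (-0.26, adjusted p = 0.147), without WT replicate 2 (adjusted p = 0.132) and with DESeq2 (adjusted p = 0.0717).

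Among the membrane-bound semaphorins 1 rose, 4 fell and 5 were not called (50% called, against 40.1% of all tested genes). SEMA6B, a transmembrane ligand of A-type plexins, had 360 and 393 reads in DKO and 522 and 545 in WT, a 1.47-fold fall (-0.55 ± 0.09, adjusted p = 1.36e-07). SEMA7A, which is lipid-anchored and binds plexin-C1 and integrins, fell by 0.35 (adjusted p = 2.9e-10) and SEMA6A by 0.34 (adjusted p = 2.81e-09). SEMA4C, a ligand of plexin-B2, fell by 0.22 (adjusted p = 0.0253). SEMA5B rested on 12 and 16 reads in DKO and 6 and 3 in WT (1.56 ± 0.51, adjusted p = 0.00877). SEMA4B (0.05), SEMA4D (-0.01), SEMA4F (-0.08), SEMA4G (-0.07) and SEMA6C (-0.23) were not called. SEMA4A, SEMA5A and SEMA6D had 1 to 10 reads per library and were not tested. SEMA6A lost its call without WT replicate 1 (-0.28, adjusted p = 0.0733), SEMA5B without DKO replicate 2 (adjusted p = 0.151), WT replicate 1 (2.12, adjusted p = 0.0868) or WT replicate 2 (1.16, adjusted p = 0.164), and SEMA4C without DKO replicate 1, WT replicate 1 or WT replicate 2 (adjusted p of 0.145 to 0.239), with upper quartile factors (0.06) and with DESeq2 (0.142). SEMA6A overlaps the antisense gene SEMA6A-AS1 (-0.39, adjusted p = 6.81e-07), so their reads may be shared, as the strand setting of the counting is not given in the sources used here.

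Of 11 semaphorin receptor genes 2 rose, NRP2 among them, and 2 fell (36.4% called, near the 40.1% of all tested genes). All 9 plexin genes, which encode the signalling receptors with an internal GTPase-activating domain, were tested, with 1 higher and 2 lower (33.3% called). PLXNA3 had 348 and 358 reads in DKO and 564 and 401 in WT (-0.50 ± 0.10, adjusted p = 7.12e-06), with the WT libraries far apart. PLXNB2, the plexin with the most reads, had 2115 and 2262 in DKO and 2608 and 2234 in WT (-0.20 ± 0.06, adjusted p = 0.00254). PLXNA2 rose by a log2 of 0.26 (adjusted p = 0.00968). PLXND1, the receptor of semaphorin-3E, stood at -0.15 (adjusted p = 0.0567), and PLXNA1 (0.01), PLXNA4 (-0.15), PLXNB1 (-0.16), PLXNB3 (-0.32) and PLXNC1 (0.19) were not called. NRP1, the gene of the other neuropilin, had 1751 and 1734 reads in DKO and 1619 and 1626 in WT (0.05 ± 0.06, adjusted p = 0.517, not called). The plexin calls were not kept with every library left out, which leaves 1 group with 1 sample. The log2 fold change then ran from -0.717 to -0.246 for PLXNA3 and from -0.294 to -0.0915 for PLXNB2. For PLXNA2 it ran from 0.198 to 0.317. Without WT replicate 1, PLXNA3 (-0.25, adjusted p = 0.16), PLXNB2 (-0.09, adjusted p = 0.408) and PLXNA2 (adjusted p = 0.082) were not called. PLXNA2 was not called without WT replicate 2 either (0.20, adjusted p = 0.161), nor PLXNB2 without DKO replicate 1 (-0.15, adjusted p = 0.0601), and both missed the threshold with DESeq2 (0.059 and 0.0547). PLXND1 was called without DKO replicate 2 (-0.21, adjusted p = 0.0219).

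Ephrins are ligands held on the cell surface, the A class by a lipid anchor and the B class by a transmembrane domain, and Eph receptors are the tyrosine kinases that answer them on touching cells. All 6 tested ephrin genes were called, 3 higher and 3 lower, where 40.1% of all tested genes were called. The rise of EFNA5 was set against falls of the other tested A ephrins. EFNA3 had 49 and 37 reads in DKO and 70 and 68 in WT (-0.73 ± 0.21, adjusted p = 0.00304). EFNA2 had 100 and 133 in DKO and 175 and 159 in WT (-0.57 ± 0.14, adjusted p = 0.000515). EFNA1 fell by 0.40 (adjusted p = 1.63e-05), and EFNA4 had 0 reads in all libraries. EFNA3, EFNA4 and EFNA1 are neighbours on chromosome 1, where the EFNA4-EFNA3 readthrough gene overlaps EFNA3 (0.34, adjusted p = 0.221). The readthrough gene had 70 and 48 reads in DKO and 46 and 44 in WT, so reads of these could be split between entries. Whether the fall of EFNA3 depends on that split was not tested. Within 1 Mb of EFNA1, 20 of 49 tested protein-coding genes were lower and 1 higher, against 25.2% and 20.3% of all tested protein-coding genes.

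Both tested B ephrins rose slightly. EFNB1 had 545 and 534 reads in DKO and 382 and 384 in WT (0.44 ± 0.09, adjusted p = 2.22e-05). EFNB2, with 4734 and 4853 in DKO and 4479 and 4020 in WT, rose by 0.12 (adjusted p = 0.0314). EFNB3 had 6 to 9 reads per library. Without WT replicate 1, EFNB1 (adjusted p = 0.056), EFNA1 (0.0868), EFNA2 (0.179), EFNA3 (0.133) and EFNB2 (0.0922) were not called, which leaves EFNA5 as the ephrin call made in that setting. Without WT replicate 2, EFNA1 (0.0746), EFNA2 (0.0916), EFNA3 (0.101) and EFNB2 (0.06 as log2 fold change, adjusted p = 0.502) were not called. EFNA2 also missed the threshold without DKO replicate 1 (-0.38, adjusted p = 0.0652), and EFNA3 (-0.54, adjusted p = 0.0898) and EFNB2 (adjusted p = 0.116) without DKO replicate 2. EFNA3 (0.102) and EFNB2 (0.0897) did so with DESeq2.

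Of 11 tested Eph receptor genes 2 rose and 3 fell (45.5% called, near the 40.1% of all tested genes). EPHB2 and EPHB3, receptors of B ephrins that are known for positioning cells in intestinal crypts, both fell. EPHB2 had 2801 and 2899 reads in DKO and 4033 and 3936 in WT (-0.53 ± 0.05, adjusted p = 2.43e-19), and EPHB3 had 66 and 64 against 128 and 111 (-0.93 ± 0.17, adjusted p = 1.89e-06). EPHB1, a relative with the same class of ligands, rose by a log2 of 0.33 ± 0.10 (adjusted p = 0.00332). EPHA4, which binds ephrins of both classes, fell by 0.29 (adjusted p = 5.84e-07). EPHA8 went from 10 and 5 reads in WT to 22 and 27 in DKO (1.64 ± 0.40, adjusted p = 0.000362) and lies close to EPHB2 on chromosome 1. EPHA2, the Eph gene with the most reads, had 9759 and 9870 in DKO and 10529 and 9477 in WT. The unscaled reads overlapped and the CPM values (183 and 185 against 203 and 186) just did not, and the difference was not called (-0.08 ± 0.05, adjusted p = 0.193). EPHA1 (-0.11), EPHA6 (0.02), EPHA10 (0.03), EPHB4 (-0.10) and EPHB6 (0.14) were not called, and EPHA3, EPHA5 and EPHA7 had 0 to 8 reads per library. EPHB1 was not called without WT replicate 1 (0.26, adjusted p = 0.143) or WT replicate 2 (adjusted p = 0.0519), and EPHA8 likewise (2.20, adjusted p = 0.0533, and 1.24, adjusted p = 0.0904).

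Slits are large secreted repellents and Robo proteins their receptors. SLIT2 had 185 and 219 reads in DKO and 392 and 422 in WT, a 2.09-fold fall (-1.06 ± 0.11, adjusted p = 6.96e-17), with no overlap. SLIT3 moved the other way on few reads, 29 and 25 in DKO against 16 and 12 in WT (0.89 ± 0.34, adjusted p = 0.027). SLIT1 stood at -0.02 (adjusted p = 0.918). ROBO2, whose span of 1743 kb is the longest of all members, had 17 and 16 reads in DKO and 26 and 34 in WT (-0.91 ± 0.32, adjusted p = 0.0159). ROBO3, the Robo gene with the most reads, had 144 and 123 in DKO and 110 and 96 in WT and was not called (0.32, adjusted p = 0.0803). ROBO1 (0.55) was not called, and ROBO4, an endothelial Robo, had 0 to 2 reads per library. Neither SLIT3 (adjusted p of 0.0625 to 0.196) nor ROBO2 (0.0663 to 0.179) kept its call with any library left out, nor with DESeq2 (0.241 and 0.205). ROBO3 was called without DKO replicate 2 (0.43, adjusted p = 0.047).

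Netrins are secreted cues that attract through DCC and repel through UNC5 receptors. NTN1, the main netrin gene, had 1946 and 2026 reads in DKO and 2345 and 2368 in WT, a fall (-0.30 ± 0.06, adjusted p = 2.6e-06). NTN4 (-0.04) and NTN5 (-0.42) were not called, and NTN3 had 0 to 2 reads. NTNG2, a lipid-anchored netrin-G ligand of synapses, had 303 and 352 reads in DKO and 224 and 221 in WT (0.51 ± 0.11, adjusted p = 6.14e-05), while NTNG1 had 1 to 5. Of the 4 UNC5 genes 2 were called lower and none higher, where 21.1% of all tested genes were lower. UNC5A had 907 and 941 reads in DKO and 1337 and 1335 in WT (-0.58 ± 0.07, adjusted p = 9.52e-14). UNC5C had 17 and 21 in DKO and 38 and 43 in WT (-1.14 ± 0.29, adjusted p = 0.00064). UNC5B stood at -0.08 (adjusted p = 0.235) and UNC5D at -0.89 (adjusted p = 0.067). UNC5D had 10 and 10 reads in DKO, at the minimum count, and 23 and 13 in WT. DCC, the attracting netrin receptor, had 12 to 18 reads per library and was not called (-0.53, adjusted p = 0.279).

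NEO1, the gene of neogenin, which is the DCC relative that receives repulsive guidance molecules, went against the called UNC5 genes. It had 8886 and 9605 reads in DKO and 6365 and 6646 in WT, or 174 ± 9.3 against 126 ± 5.2 CPM (0.46 ± 0.05, adjusted p = 7.56e-17). RGMB, which encodes one of its ligands and a co-receptor of bone morphogenetic proteins, rose by 0.25 (adjusted p = 2.28e-05). RGMA had a similar value that was not called (0.17, adjusted p = 0.0548). DRAXIN, a secreted antagonist that binds netrin and DCC, had 14 to 30 reads (-0.62, adjusted p = 0.114). RGMB overlaps RGMB-AS1, which was also higher (0.70, adjusted p = 0.0198). Without WT replicate 1 or WT replicate 2, RGMB (adjusted p = 0.0974 and 0.0506), NTNG2 (0.0965 and 0.0702) and UNC5C (0.0625 and 0.0709) were not called, and UNC5C was not with DESeq2 (0.056). RGMA was called with DESeq2 size factors (0.041), with upper quartile factors (0.017) and with the 50-read filter (0.0403), and NTN5 without DKO replicate 2 (-0.77, adjusted p = 0.0423).

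Set side by side, a larger share of ligands than of receptors was called, and both lists had medians near 0. Of 33 tested ligands 9 were higher and 13 lower (66.7% called), and of 31 tested receptors 5 were higher and 8 lower (41.9%), where 40.1% of all tested genes and 45.5% of protein-coding ones were called. The receptor share was thus close to that of all genes. The median log2 fold change was -0.08 for ligands and -0.10 for receptors, and the median absolute change 0.41 and 0.29, against 0.19 over all tested genes. Which median lay lower turned with a library: without WT replicate 1 they were -0.18 for ligands and -0.05 for receptors, and without DKO replicate 2 -0.15 and -0.13. Without WT replicate 2 they were -0.12 and -0.14. The receptors had fewer reads, with a median of 1544 over the 4 libraries and 9 of 31 under 200, against 2420 and 4 of 33 for ligands. The difference between the lists was not tested. With either WT library left out, fewer ligands, fewer receptors and fewer of all tested genes were called. The shares of ligands and receptors called then lay closer together than with all 4 libraries. Within each system, called ligands outnumbered called receptors for semaphorins (11 of 17 against 4 of 11), ephrins (6 of 6 against 5 of 11) and Slits (2 of 3 against 1 of 3). In the netrin and repulsive guidance molecule group, 3 of 7 ligands and 3 of 6 receptors were called. Ligand and receptor genes that work together went opposite ways in some cases. NRP2 rose while its ligand genes SEMA3C and SEMA3F fell, and EFNB1 and EFNB2 rose while EPHB2 and EPHB3 fell. For SEMA3E, which rose, the receptor gene PLXND1 was not called. Other partners were called in 1 direction: EPHB1 rose with EFNB1 and EFNB2, RGMB with NEO1, and NTN1 fell with UNC5A and SEMA4C with PLXNB2. These pairs are examples chosen after their values were seen, and not all pairs were counted.

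Falls made up the largest share among members under 30 kb. The 4 well-counted rises above 1 on the log2 scale were of members of 100 to 300 kb. Of 21 members with a RefSeq span under 30 kb, 10 were lower and 2 higher, where 30.6% of 5942 tested protein-coding genes of that span were lower and 11.8% higher. Between 100 and 300 kb, 7 of 17 members were higher and 5 lower, against 34.1% and 18.3% of 2148 genes. EFNA5 (294 kb), SEMA3E (286 kb), SEMA3D (255 kb) and NRP2 (116 kb) fall in that range. SEMA5B, which is among the 7, lies there too, and EPHA8 (40.1 kb) does not. Both also rose by more than 1, but they reached the minimum count in DKO only, where they are high. Above 300 kb, 2 of 11 were higher and 3 lower, against 36.7% and 14.4% of 679 genes. From 30 to 100 kb, 3 of 15 were higher and 3 lower, against 22.6% and 22.8% of 4314 genes. Whether the members differ from other genes of their span was not tested. No member lies on chromosome 20, whose 428 tested genes had a median log2 fold change of -0.59. On the chromosomes that hold tested members, the medians over all tested genes ran from -0.13 (chromosome 19) to 0.11 (chromosome 18).

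**Figure D4:**
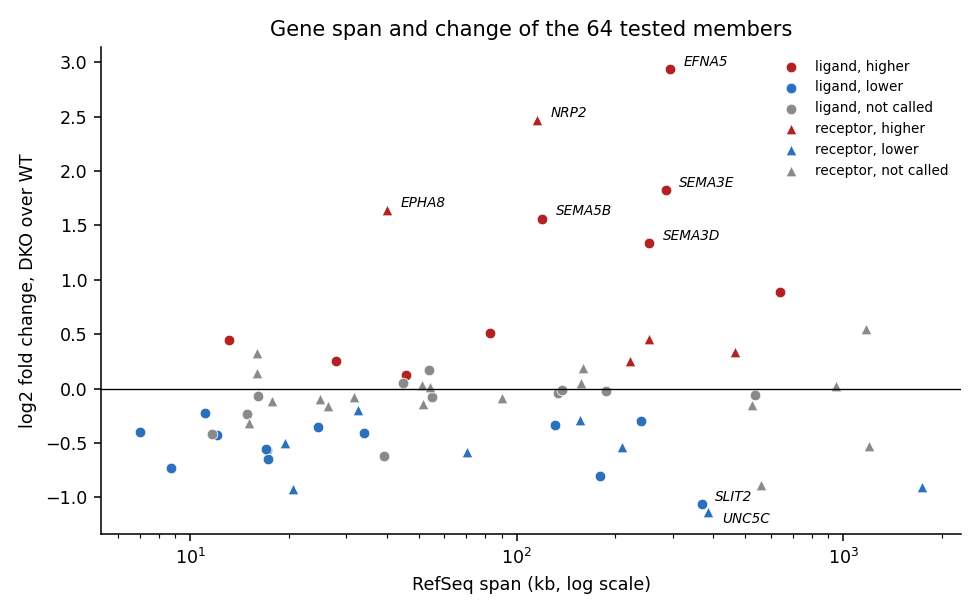
Log2 fold change of DKO over WT against RefSeq span (log axis) for the 64 tested members, with circles for ligands, triangles for receptors and colours for the call. Members under 30 kb lie mostly below 0 (10 of 21 called lower), and 6 members lie above 1: EFNA5, NRP2, SEMA3E, SEMA3D and SEMA5B at spans of 116 to 294 kb and EPHA8 at 40.1 kb. SEMA5B and EPHA8 reached the minimum count in DKO only.

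Genes that act downstream of the receptors were called in both directions in similar numbers. Of 61 tested effector genes, the kinases, GTPase regulators and actin factors that guidance receptors use inside the cell, 16 were higher and 17 lower (54.1% called, against 40.1% of all tested genes), with a median log2 fold change of -0.00119. With upper quartile factors the split was 19 and 13. CHN1, the gene of the Rac regulator chimaerin-1 that acts below EphA4, rose by a log2 of 0.87 ± 0.05 (adjusted p = 4.19e-38). The Src family kinase gene FYN rose by 0.78 ± 0.05 (adjusted p = 9.55e-33), and DPYSL2, whose product CRMP2 relays semaphorin-3A signals to microtubules, by 0.61 ± 0.05 (adjusted p = 4.28e-23). The falls were led by the small GTPase gene RHOD (-0.58), the R-Ras gene RRAS (-0.56), whose product plexins inactivate, and the kinase gene SRC (-0.55), which lies on chromosome 20.

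Of 26 tested genes of other guidance partners, such as adhesion co-receptors and alternative ligands, 6 were higher and 10 lower (61.5% called, against 40.1% of all tested genes, median 0.02). CNTN1, a neural adhesion gene, went from 202 and 197 reads in WT to 26 and 20 in DKO (-3.16 ± 0.19, adjusted p = 3.5e-36). L1CAM, a semaphorin-3A co-receptor, fell by 0.66 and HJV, a relative of the RGM genes, by 0.53. BMP4, a ligand of the pathway in which RGM proteins are co-receptors, rose by a log2 of 2.28 ± 0.05 (adjusted p = 1.52e-103). BOC, a netrin and hedgehog co-receptor gene, rose by 0.96 ± 0.10 and CD72, a semaphorin-4D receptor gene of B cells, by 0.59. Of 9 tested protease genes 5 were called (55.6%, against the same 40.1%). Of these 3 were higher, ADAM10 (0.32), which cuts ephrins from the surface, ADAM17 (0.26) and MMP14 (0.69), and 2 lower, BMP1 (-0.37) and APH1A (-0.34). Fewer effectors, partners and proteases were called with WT replicate 1 left out, as were fewer of all tested genes.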

How the data were processed

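Nascent RNA of 4 TTchem-seq libraries was analysed, 2 per group, with groups read from the titles. Each library was made, per the labels' protocols, from 66 ng of labelled RNA with a stranded kit and read as single reads of 75 bp. The deposited files hold raw read counts per Ensembl gene, made by the authors with STAR 2.7.3a and featureCounts 1.6 on hg38, per the submitters' processing notes. How featureCounts was set (strand, exons or whole genes, gene set version) is not given in the sources used here. Values are relative to each library's total, without spike-ins.

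Symbols were found for 42020 of 60656 IDs, and spans were taken by symbol from RefSeq (GRCh38.p14, a patch release of hg38). All 75 members matched, and 64 had a window in the RefSeq promoter table. Counts of all genes were tested with edgeR 4.0.16 in R 4.3.3 (glmQLFTest), fitted on group alone with TMM factors (0.9923 to 1.005) after filterByExpr (minimum count 10, minimum total 15), with Benjamini-Hochberg adjustment over 19103 genes and a threshold of 0.05. The biological coefficient of variation was 3.46%. SE is the absolute log2 fold change over the square root of F, with n = 2 per group. The test was tested on simulated data. CPM uses TMM factors. A replicate pair differed by more than sampling noise (chi-square of 5.04 and 4.37 per degree of freedom).

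Members were found by symbol alone, but the choice of families and of the other gene lists was made with earlier results of these data known. The value of 1 immune marker is not reported here. Named were all tested members, with counts per library for those called with an absolute log2 fold change of at least 0.5 and for the member with the most reads in each family, and the 3 largest called changes per direction of each other list. Counts of some further members, and the neighbours of members, were named after their values were seen. Alternatives were DESeq2 size factors, upper quartile factors, total counts, a looser filter (any gene with 1 read) and a stricter one (50 reads or more in 2 libraries), DESeq2 1.42.0 (Wald test), voom of limma 3.58.1, the replicate number as a block, members that overlap no other tested gene, and each library left out. Leaving a library out leaves its group with 1 sample, whose spread is then taken from the other group. Figures were drawn with matplotlib 3.10.9.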

Additional observations from a re-analysis of the deposited data

How the results depend on the processing

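Upper quartile factors turned the split of all genes from 3632 higher and 4025 lower to 4226 and 3328, while the members went from 14 and 21 to 15 and 20. The filter, the tool and the WT libraries moved more. With every gene of at least 1 read kept, 1640 genes were higher and 1655 lower, with 7 and 12 members (ligands 5 and 7, receptors 2 and 5). Effectors gave 9 higher and 7 lower, partners 3 and 4, and proteases 2 and 1. That filter also ended the calls of EFNA1, EFNA2, EFNA3, EFNB2, EPHA8, EPHB1, NTNG2, PLXNA2, PLXNA3, PLXNB2, ROBO2, SEMA3F, SEMA3G, SEMA4C, SEMA5B and SLIT3 (adjusted p of 0.0554 to 0.3). The Wald test of DESeq2 called 2479 genes higher and 2524 lower, with 9 members higher and 15 lower (ligands 6 and 10, receptors 3 and 5). It called 15 effectors higher and 11 lower, and 5 partners higher and 5 lower. The cause of these differences was not tested.

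With each library left out in turn, 1023 to 3127 genes were higher and 928 to 3443 lower. The ranges were 5 to 13 and 9 to 21 for members, 3 to 8 and 5 to 13 for ligands, 2 to 6 and 4 to 8 for receptors, 7 to 19 and 4 to 14 for effectors, 3 to 7 and 3 to 9 for partners, and 1 to 3 and 0 to 2 for proteases. Each lowest count came with WT replicate 1 left out; for receptors higher and partners higher, WT replicate 2 gave the same one. Members that overlap no other tested gene gave 13 higher and 16 lower of 48. The median log2 fold change of members lay between -0.13 and -0.05.

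The replicate numbers do not pair the libraries: deviations of same-numbered libraries had a correlation of 0.0114 over 19103 genes, with only 2 pairs. With the replicate number as a block, 3742 genes were higher and 4078 lower, and the members again gave 14 and 21.

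Values that changed sign were all of members that were not called. EPHA6 was at -0.26 with voom, and SEMA4D at 0.0226 and SLIT1 at 0.0121 with upper quartile factors. With a library left out, EPHA10 ran from -0.0196 to 0.0892, EPHA6 from -1.27 to 0.70, EPHB6 from -0.15 to 0.39, PLXNA1 from -0.0496 to 0.0751, PLXNA4 from -0.40 to 0.14, SEMA4D from -0.0401 to 0.0159, SEMA4F from -0.183 to 0.0218 and SLIT1 from -0.23 to 0.21. Depth limits the 13 tested members with under 200 reads in all, and the 11 that were not tested.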

Other observations

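Neighbours of the members, named after their values were seen, had both like and unlike values. PARD3B, a cell polarity gene beside NRP2 (2.47) on chromosome 2, was higher by a log2 of 1.07 (adjusted p = 1.02e-48, 4372 and 4818 reads in DKO, 2115 and 2099 in WT). INO80D on the other side of NRP2 stood at 0.05 and was not called. EFNA5 (2.93) had 1 tested protein-coding gene within 1 Mb, the F-box gene FBXL17, which was higher by 0.25. SGPP2, a sphingosine phosphatase gene near EPHA4 (-0.29), rose by 2.24 (314 and 336 reads in DKO, 57 and 76 in WT). PACRGL near SLIT2 (-1.06) fell by 0.33 on the log2 scale. Around SEMA6B, 18 of 39 tested protein-coding genes within 1 Mb were lower and 2 higher, and around EFNA2 29 of 65 were lower and 1 higher. Of all tested protein-coding genes 25.2% were lower and 20.3% higher. Other windows were balanced, with 5 of 23 lower and 5 higher around EPHB2 and 8 of 23 lower and 7 higher around SLIT1.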
